A study of Mus musculus with 8 samples.

Results

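A set of 1908 genomic regions carried 5-hydroxymethylcytosine (5hmC) in mouse induced pluripotent stem cells (iPSC), had no 5hmC peak in the starting fibroblasts, and were reached by cells on the OSNK route but on no sampled day of the OySyNyK route. To find them, the peaks of all 8 deposited lists were merged where they overlapped or touched, which gave 222732 union regions. A region counted as present in a sample when it held at least 1 bp of a peak of that list. Of the union regions, 52626 were present in iPSC and 40966 of those were absent in the fibroblasts. The OSNK-only regions were 4.66% of these 40966. They were chosen by presence in these same lists, so their presence patterns and peak scores are descriptions and no test is given for them.

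The samples were mouse embryonic fibroblasts (MEF), reprogramming intermediates at D1, D3 and D5 (read as days) of the OSNK method and of the OySyNyK method, and iPSC, with 1 library each. The labels do not spell out the factor names; as background on the study, O, S, N and K are Oct4, Sox2, Nanog and Klf4, and the letter y marks a factor joined to the transactivation domain of the coactivator YAP. Per the labels' protocols the fibroblasts were OG2-MEFs, a line of mice that carries a green fluorescent reporter of Oct4, and medium with vitamin C and leukemia inhibitory factor was used to generate iPSCs, which were kept on mitotically inactivated MEF feeder cells. By its title the iPSC sample came from the engineered OySyNyK factors, so the end state to which both routes are compared is an OySyNyK line, and no iPSC library of the OSNK route was used here. Whether intermediates were sorted, or feeders removed before DNA was taken, is not given in the sources used here.

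5hmC is made when the TET dioxygenases oxidise 5-methylcytosine. It is a step on a path of active demethylation and also a stable mark, enriched at enhancers and gene bodies of active genes. Reprogramming factors recruit TET enzymes to pluripotency loci, and TET1 and TET2 take part in the early steps of iPSC formation. The 5hmC of each sample was tagged chemically with a biotin-bearing sugar and captured on streptavidin, so a peak marks a stretch of sequence enriched in captured fragments. A missing peak means that none was called, not that 5hmC was missing.

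The lists held between 54938 peaks (iPSC) and 116302 peaks (OSNK D1). The OSNK lists covered 91.9, 98.2 and 70.2 Mb at D1, D3 and D5, and the OySyNyK lists covered 76.9, 74.3 and 57.6 Mb. Longer lists can meet more iPSC regions, so the count, the first days of OSNK-only regions and the iPSC shares are also given for lists of equal length. Each peak has a deposited score, a MACS value that is higher for a smaller p-value of the peak, and the lowest score in every list was 50. Read depth is unknown. With 1 library in a group there is no replicate check, and no p-value is given. Intervals for shares are exact 95% binomial intervals and cover counting error only.

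The OSNK-only set was small beside its counterpart. By the mirror rule, 6349 iPSC regions without a MEF peak were reached with OySyNyK only, 15.5% of the 40966 and 3.33 times as many as with OSNK only. With equal numbers of peaks in each list, 1487 regions were OSNK-only, 0.238 per OySyNyK-only region in place of 0.301. A further 8507 were reached with both methods and 24202 with neither. The OSNK lists together met 25.4% of the 40966 regions and the OySyNyK lists met 36.3%. Of the 10415 regions that OSNK met, 8507 were therefore also met by OySyNyK.

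OSNK-specific 5hmC seldom fell on an iPSC region. Absent in MEF and in all OySyNyK lists, 48060 regions were specific to OSNK, and 3.97% of them had an iPSC peak. The same share was 18.7% of the 33995 regions specific to OySyNyK and 15.8% of the 53871 regions that both methods marked and MEF did not. With lists cut to equal numbers of peaks, the shares of OSNK-specific and OySyNyK-specific regions were 6.12% and 25.1%. The order of the 2 methods was the same in all 13 alternative settings that give this share.

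The regions were reached on all 3 sampled days, with the largest part appearing last. First calls came at D1 for 571 regions (29.9%, 95% interval 27.9 to 32.0), at D3 for 592 (31.0%, 28.96 to 33.2) and at D5 for 745 (39.0%, 36.8 to 41.3). For comparison, 11.9%, 16.9% and 21.2% of all iPSC regions without a MEF peak were present at OSNK D1, D3 and D5, and 14.8%, 24.2% and 28.8% on those days of OySyNyK. A smaller share of the OySyNyK-only regions was found as early, with 16.1% (1024 regions) first called at D1 (15.2 to 17.1). At D3 it was 36.3% and at D5 47.6%. All method-specific regions differed the same way, with 16013 of 48060 OSNK-specific and 6659 of 33995 OySyNyK-specific regions called at D1 alone. The OSNK D1 list was also the longer, with 116302 peaks against 100951 for OySyNyK D1. Of the regions reached with both methods, 50.4% were first called at D1 on the OSNK route and 59.0% on the OySyNyK route. These shares depended on the setting. When all lists had equal numbers of peaks, 19.3%, 39.5% and 41.2% of the OSNK-only regions were first called at D1, D3 and D5. No such values are given for OySyNyK-only regions. D5 was not the commonest first day in 4 settings: D3 led with 38.7% when iPSC peaks were taken singly and with 43.1% when 50% of the iPSC peak had to be covered, while D1 led with 39.4% when peaks within 1 kb were merged and with 36.7% without the OySyNyK D1 list.

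Most regions were called on 1 day only. Those on a single OSNK day numbered 1194 (62.6%), those on 2 days 486 (25.5%) and those on all 3 days 228 (11.95%, 95% interval 10.5 to 13.5). The commonest pattern was a peak at D5 alone, in 745 regions, followed by D3 and D5 together in 329, D3 alone in 263, all 3 days in 228 and D1 alone in 186. D1 with D3 was seen in 105 regions and D1 with D5, skipping D3, in 52. Calls on a single day were not particular to this set. Of the OySyNyK-only regions, 67.2% were called on 1 OySyNyK day and 7.17% on all 3. Of all 48060 OSNK-specific regions, 33975 were called on 1 day and 3945 on all 3. Of the regions reached with both methods, 38.8% were present on all 3 OSNK days.

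A region once called was often not called again. Among the 571 OSNK-only regions present at D1, 333 (58.3%, 54.2 to 62.4) were present at D3 and 280 (49.0%, 44.9 to 53.2) at D5. Of the 925 present at D3, 60.2% were present at D5. In regions reached with both methods these shares were 84.9%, 84.0% and 86.0%. In OySyNyK-only regions, followed over the OySyNyK days, they were 64.2%, 55.8% and 59.7%. Over all OSNK-specific regions, D1 calls recurred less often than in the OSNK-only set. There, 16013 were called at D1 alone, 4420 at D1 and D3, 1565 at D1 and D5 and 3945 on all 3 days. The same numbers for OSNK-only regions were 186, 105, 52 and 228. In all, 1302 OSNK-only regions (68.2%) were present from their first day through D5. Of these, 745 were first called at D5 and so counted by definition, 329 were called at D3 and D5, and 228 on all 3 days. A further 554 (29.0%) were not called at D5 although they were present earlier and in iPSC.

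Among OSNK-specific regions called on a single day, those of a later day more often met an iPSC peak. Only 1.16% of the 16013 OSNK-specific regions called at D1 alone had an iPSC peak (95% interval 1.00 to 1.34). The share was 3.91% of 6730 at D3 alone (3.46 to 4.40) and 6.63% of 11232 at D5 alone (6.18 to 7.11). Regions called at both D3 and D5 reached 7.92% of 4155, and those called on all 3 days 5.78% of 3945. Those of D1 and D3 reached 2.38% of 4420 and those of D1 and D5 3.32% of 1565, which is below D3 alone. The OySyNyK-specific regions had the same order of single days at a higher level, with 3.77%, 10.5% and 30.1% at D1, D3 and D5 alone. The plot of day patterns shows both sets side by side.

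**Figure D1:**
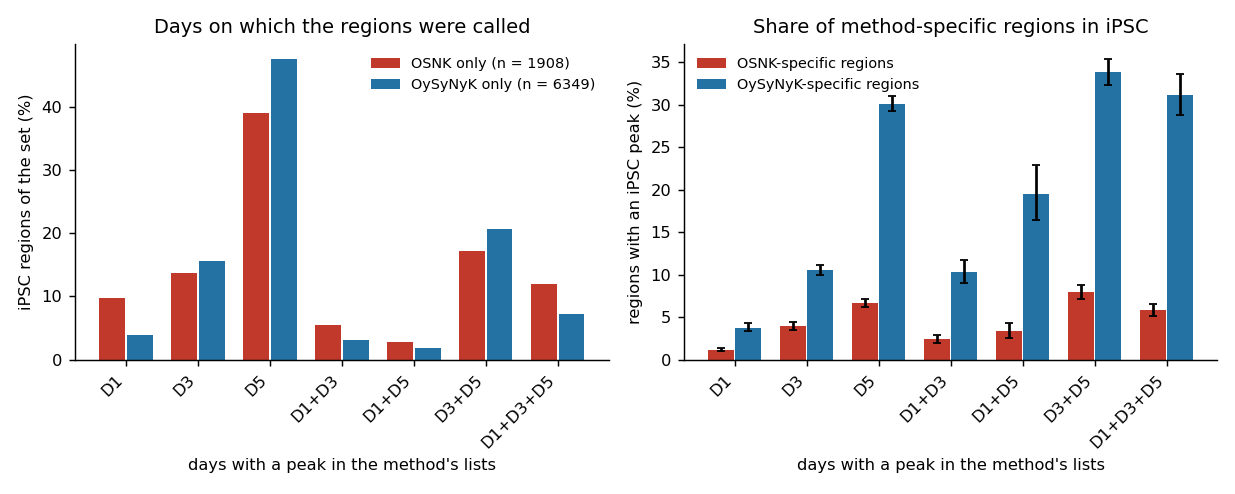
Left, share of OSNK-only and OySyNyK-only iPSC regions (percent) by the days on which the method's lists held a peak; right, share of all regions specific to a method that had an iPSC peak (percent), with exact 95% binomial intervals as error bars. D5 alone is the commonest pattern in both sets, and every OSNK bar on the right lies below the OySyNyK bar of the same days, from 1.16% against 3.77% at D1 alone to 6.63% against 30.1% at D5 alone.

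In iPSC the OSNK-only regions had low scores, near those of regions that neither method reached. Their iPSC score ran from 50.0 to 292.4 with a median of 65.96, and the middle 50% lay between 56.4 and 83.5. The median was 66.3 for regions reached with neither method, 78.8 for OySyNyK-only regions and 75.7 for regions of both methods. Of all 40966 iPSC regions without a MEF peak, 21% had an iPSC score of at least 100. Among OSNK-only regions these were 259 (13.6%, 95% interval 12.1 to 15.2), against 32.0% of the OySyNyK-only regions, 29.1% of those of both methods and 15.8% of those of neither. The median was lower for OSNK only than for OySyNyK only in all 15 alternative settings.

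The 40966 regions were then ranked by iPSC score and cut into 5 groups. In the lowest-scoring 8193 regions, 5.38% were OSNK-only and 11.7% OySyNyK-only. In the highest-scoring 8194 regions, 2.94% were OSNK-only (95% interval 2.59 to 3.33) and 23.9% were OySyNyK-only. The OSNK-only share was thus lower at the top of the iPSC list than at its bottom, and the OySyNyK-only share was higher there.

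The OSNK peaks of these regions were weak for their lists. Their median score was 73.9 at D1 (571 regions), 75.3 at D3 (925) and 67.4 at D5 (1354), while all regions of those lists had medians of 106.1, 92 and 81.9. OSNK-specific regions without an iPSC peak were weaker again, at 70.5, 68.5 and 63.9. Weak peaks were not particular to the OSNK-only set. OySyNyK-only regions had medians of 66.9, 69.9 and 69.4 at OySyNyK D1, D3 and D5. All peaks of those lists had medians of 95.8, 84.2 and 75.8. The median highest score in the method's own lists was 71.2 for OSNK-only and 70.85 for OySyNyK-only regions. Regions called on all 3 days had a median highest OSNK score of 138.8, against 90.6 for 2 days and 62.9 for 1 day. A region called on more days has more scores to take the highest from, so the measure itself can give this order. The median iPSC scores of these groups were 65.5, 64.1 and 66.9 for 3, 2 and 1 days.

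Across the OSNK-only regions the OSNK score and the iPSC score had a correlation near 0. Between the highest OSNK score and the iPSC score, Spearman's rho was -0.03 and Pearson's r of the log2 scores was -0.04 over 1908 regions, which share libraries and lie along the same chromosomes. For OySyNyK-only regions the values were 0.16 and 0.20 over 6349 regions. Both scores grew with region width, with a rho of 0.37 for the OSNK score and 0.20 for the iPSC score. In 1093 OSNK-only regions (57.3%) the highest OSNK score exceeded the iPSC score. This sets the highest of up to 3 lists against 1 list, and scores were not scaled between samples. The median peak score was 71.0 in the whole iPSC list and 104.5, 91.4 and 81.3 in those of OSNK D1, D3 and D5. Only 49 regions (2.57%, 95% interval 1.91 to 3.38) scored at least 100 both in iPSC and on some OSNK day, and 4 scored at least 150 in both. Of the OySyNyK-only regions, 8.82% scored at least 100 in both.

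**Figure D2:**
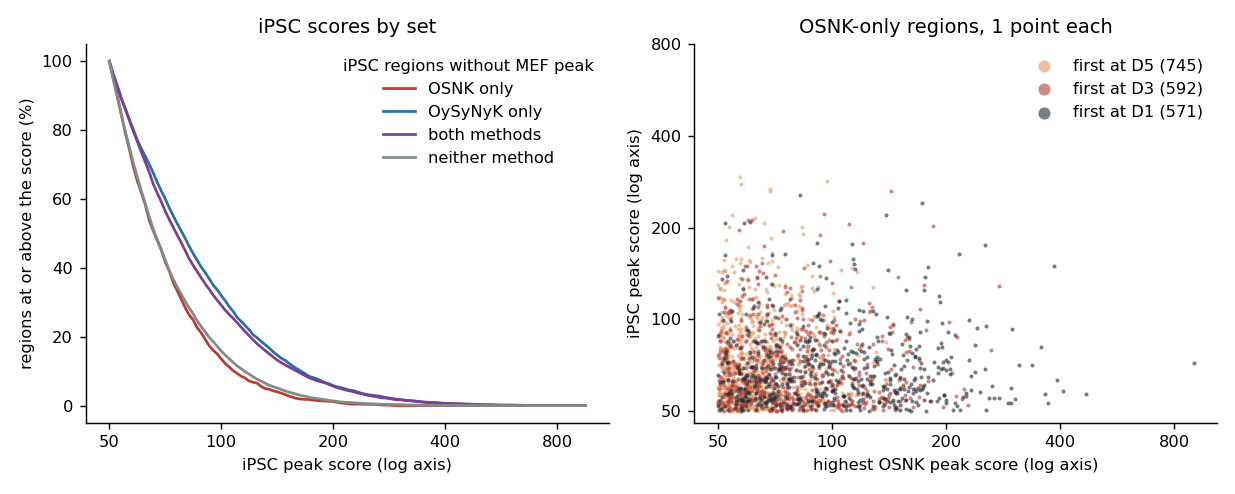
Left, share of iPSC regions without a MEF peak (percent) at or above each iPSC peak score (log axis) for the 4 sets; right, iPSC score against the highest OSNK score (both log axes) for the 1908 OSNK-only regions, 1 point each, coloured by the first OSNK day. The OSNK-only curve runs with that of regions reached with neither method, and the points fill the corner of low scores, with the 900.88 of a region on chromosome 19 at the far right beside an iPSC score of 71.7.

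OSNK-only regions were of ordinary width. Their median width was 862 bp, with the middle 50% between 659 and 1184 bp and the widest at 6106 bp, and OySyNyK-only regions had a median of 873 bp. A region reached by neither method, made of iPSC peaks alone, had a median of 599 bp, and a region of both methods 1235 bp, since more peaks add to the latter. Width followed the number of OSNK days, with medians of 742.5, 999.5 and 1170.5 bp for 1, 2 and 3 days.

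The iPSC peak and the OSNK peaks of a region mostly marked the same bases. The iPSC peaks covered a median of 550.5 bp and the OSNK peaks together 717.5 bp, and 460 bp lay under both. In 1639 regions (85.9%) at least 50% of the iPSC-covered bases were also under OSNK peaks, and in 688 (36.1%) all of them were. In 57 regions (2.99%) the shared part was under 10%, and in 1 region the peaks touched without sharing a base. Of the 1908 regions, 19 held more than 1 iPSC peak.

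Some regions lay close to the edge of the rule. An OySyNyK peak lay within 100 bp of 49 OSNK-only regions without touching them, and these had a median iPSC score of 74.4 and a median highest OSNK score of 70.0. In 15 regions without a MEF peak the OySyNyK overlap was 100 bp or less, which put them outside, with medians of 76.0 and 83.9. A MEF peak lay within 100 bp of 15 OSNK-only regions, with medians of 59.3 and 60.45, and 8 regions without an OySyNyK peak had a MEF overlap of 100 bp or less, with medians of 62.1 and 56.7. In score, 380 OSNK-only regions had an iPSC score under 55 and 286 a highest OSNK score under 55, close to the lowest value of 50. Just outside lay 343 regions of both methods whose highest OySyNyK score was under 55, with medians of 68.4 in iPSC and 78.3 in OSNK, of which 308 were called on 1 OySyNyK day only.

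The rule leans on single lists. Without the OySyNyK D5 list, the shortest of the intermediates, 2902 regions were OSNK-only and there were 0.870 per OySyNyK-only region. Without the OSNK D5 list 1155 were OSNK-only, and 0.140 per OySyNyK-only region. Without the OySyNyK D3 list the ratio was 0.474. With only peaks scoring 100 or more, 308 regions were OSNK-only, and 49 of the 1908 were among them. The ratio stayed under 1 in all 15 alternative settings.

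Most of these regions had an OySyNyK peak within 10 kb, as OySyNyK-only regions had an OSNK peak. The nearest OySyNyK peak of any day was a median of 2408.5 bp away, within 1 kb of 531 regions (27.8%) and within 10 kb of 1616 (84.7%). In the mirror set the nearest OSNK peak was a median of 2692 bp away, within 1 kb of 25.0% and within 10 kb of 83.7%. For regions reached with neither method the nearest OySyNyK peak was a median of 3675 bp away, with 20.5% within 1 kb and 76.1% within 10 kb. The nearest MEF peak was a median of 8490 bp away, within 1 kb of 197 regions (10.3%), against 11181 bp for regions reached with neither method and 7962 bp for OySyNyK-only regions. When OySyNyK and MEF peaks were required to be more than 1 kb away, 1337 of the 1908 regions remained.

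The surroundings, which the rule did not use, were rich in peaks of every list. Between 2 and 50 kb from the edges of the OSNK-only regions, OSNK peaks covered 7.90%, 9.92% and 7.51% of the sequence on average at D1, D3 and D5, and OySyNyK peaks 6.80%, 7.02% and 5.66%. MEF peaks covered 5.20% and iPSC peaks 4.40%. Set against each list's cover of the whole sequence, these were 2.27, 2.67 and 2.83 times the list mean for OSNK, 2.33, 2.49 and 2.59 times for OySyNyK, 2.18 times for MEF and 2.82 times for iPSC. Round OySyNyK-only regions the ratios were 2.71, 3.21 and 3.54 for the OySyNyK days and 4.38 for iPSC. Round OSNK-specific regions without an iPSC peak they were 1.91, 2.06 and 2.06 for the OSNK days and 1.31 for iPSC. The iPSC ratio was 3.41 round regions reached with neither method and 4.14 round those of both, so that the 2.82 of OSNK-only regions was the lowest of the 4 sets of iPSC regions. Neighbouring regions share their surroundings, so these means have no error attached.

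In each of the 4 sets the nearest other iPSC region without a MEF peak was of the same set more often than that set's share of all such regions. For OSNK-only regions it was OSNK-only in 166 cases (8.70%), against 4.66% of all. The same values were 18.8% against 15.5% for OySyNyK-only regions, 30.8% against 20.8% for those of both methods and 63.6% against 59.1% for those of neither. Next to OSNK-only regions it was OySyNyK-only in 255 cases (13.4%) and of both methods in 457 (24.0%). The distance to that neighbour was a median of 7201.5 bp, against 4930 bp for OySyNyK-only regions. The nearest other OSNK-only region was a median of 183 kb away, within 10 kb for 156 regions (8.18%).

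The regions were spread thinly over all 20 chromosomes in the lists. They fell in 965 windows of 1 Mb, of which 488 held 1 region, and 47 windows with 5 or more held 293 regions. The 3 fullest windows were all on chromosome 12. From 74000001 to 75000000 there were 10 OSNK-only and 7 OySyNyK-only regions among 77 iPSC regions without a MEF peak. From 77000001 to 78000000 there were 9 and 19 among 134, and from 80000001 to 81000000 there were 9 and 6 among 64.

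Chromosome 12 held 195 OSNK-only regions, 10.2% of the set (95% interval 8.90 to 11.7), the most of any chromosome. It held 6.19% of the OySyNyK-only regions, 9.10% of those reached with neither method and 4.26% of the OSNK-specific regions without an iPSC peak. Of its 2162 OSNK-specific regions 9.02% had an iPSC peak (7.85 to 10.3), against 3.97% over all chromosomes. Chromosomes 13 and 16 had 27 and 19 OSNK-only regions, and 1.09% (0.718 to 1.58) and 0.941% (0.568 to 1.47) of their OSNK-specific regions had an iPSC peak. All iPSC regions without a MEF peak numbered 3392 on chromosome 12, 648 on chromosome 13 and 442 on chromosome 16. As a share of the iPSC regions without a MEF peak on the same chromosome, OSNK-only regions were 5.75% on chromosome 12 (4.99 to 6.59). Chromosome 13 had 4.17% and chromosome 16 had 4.30%, and the value over all chromosomes was 4.66%.

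Measured that way, the order of the chromosomes was another one. Regions cluster along chromosomes, so the intervals here are too narrow to tell chromosomes apart. OSNK-only regions made up 7.04% of these iPSC regions on chromosome 18 (95% interval 5.39 to 9.0) and 6.37% of those on chromosome 6 (5.03 to 7.94). On chromosome 3 they made up 6.29% (5.26 to 7.45). The lowest shares were 3.25% on chromosome 4 (2.66 to 3.94), 3.36% for chromosome 7 (2.72 to 4.09) and 3.75% for chromosome 5 (3.13 to 4.45). OySyNyK-only regions outnumbered OSNK-only ones on each chromosome, from 1.85 times on chromosome 6 to 5.57 times on chromosome 4. The ratio was 2.02 for chromosome 12 and 2.07 for chromosome 18. X held 6 OSNK-only regions, too few to place it.

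With every chromosome cut into 3 equal parts, 40.7% of the OSNK-only regions (95% interval 38.5 to 43.0) lay in the part with the highest coordinates, which is farthest from the centromere of the mouse's telocentric chromosomes. The share was 51.7% (50.4 to 52.9) for OySyNyK-only regions, 49.3% for those of neither method and 35.5% for OSNK-specific regions without an iPSC peak. The middle part held 35.8% of the OSNK-only and 28.1% of the OySyNyK-only regions.

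**Figure D3:**
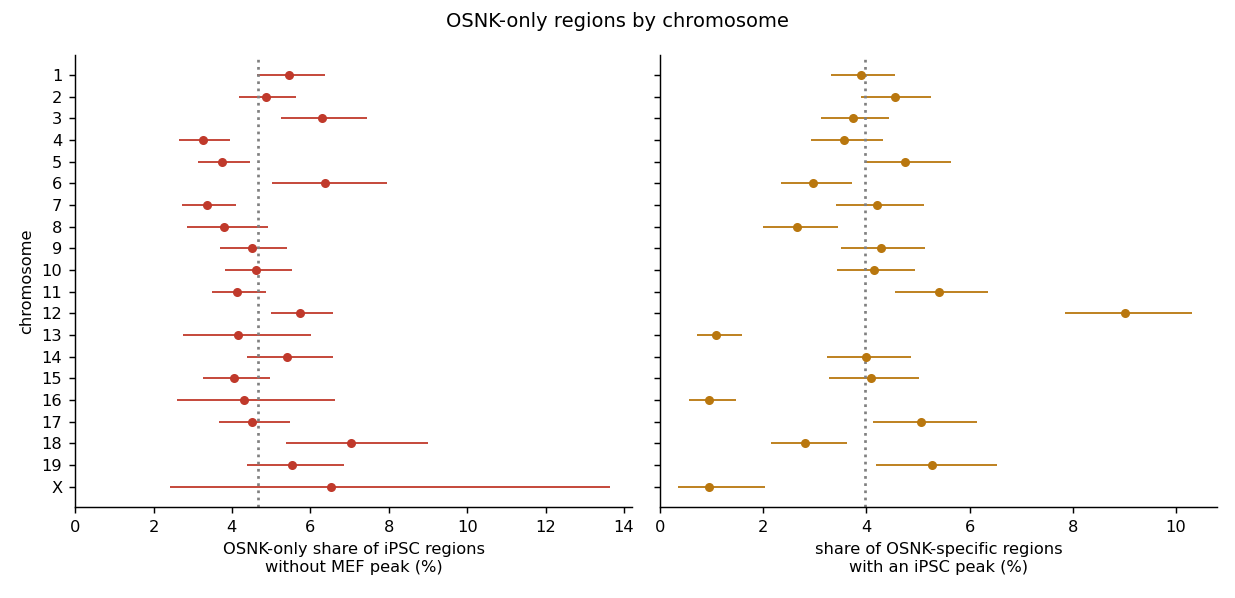
Left, OSNK-only regions as a share of all iPSC regions without a MEF peak on each chromosome (percent); right, share of the regions specific to OSNK that had an iPSC peak (percent), with exact 95% binomial intervals and dotted lines at the values over all chromosomes, 4.66% and 3.97%. Chromosome 12 has the highest value on the right, 9.02%, and 5.75% on the left.

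Single regions show how the set is made up. Positions are in the lists' own mouse assembly, counted from 1; they were not assigned to genes, and labelled cell types were not checked against marker genes, since an annotation of this assembly was not used here. No region named here had a peak in MEF or OySyNyK, by the rule.

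The 5 highest iPSC scores all belonged to regions called at OSNK D5 alone, with OSNK scores between 57.3 and 97.1. The highest, on chromosome 15 from 102016482 to 102019749, scored 292.4 in iPSC and 57.3 at D5. Only 271 bp, 9.30% of its iPSC peak, lay under the OSNK peak, and an OySyNyK D3 peak of score 275.7 stood 5093 bp away. On chromosome 11, 94134271 to 94136070 scored 283.3 in iPSC and 97.1 at D5, with an OySyNyK D3 peak of score 160.45 at 340 bp and a MEF peak at 170 bp. On chromosome 10, 79201561 to 79204041 scored 278.1 and 57.4. On chromosome 2, 119118390 to 119121026 scored 268.2 and 68.5. The last of the 5, on chromosome 12 from 112565367 to 112566208, scored 263.4 and 68.6 and had a MEF peak 25 bp and an OySyNyK D5 peak of score 122.9 only 100 bp away. In 4 of the 5 the OSNK D5 score was below the median of 81.9 over all regions of that list, and the chromosome 11 region was above it. In 2 of the 5 a MEF and an OySyNyK peak lay within 340 bp.

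The strongest lasting OSNK signal belonged to other regions, with low iPSC scores. On chromosome 13, 5974759 to 5976288 scored 375.1, 407.6 and 331.1 at OSNK D1, D3 and D5 and 58.0 in iPSC, and the nearest OySyNyK peak was 17543 bp away. On chromosome 3, 54952310 to 54953747 scored 468.8, 377.6 and 230.6 and 56.75 in iPSC, with an OySyNyK D1 peak of score 92.3 at 2562 bp. The region on chromosome 2 from 60264827 to 60266099 scored 205.9, 244.2 and 311.8 and, with 2 iPSC peaks, 70.7. It had an OySyNyK D1 peak of score 164.0 only 183 bp away. On chromosome 11, 63256227 to 63258758 scored 239.4, 337.7 and 199.0 and 70.65 in iPSC. The D1 peak of 239.4 did not overlap the iPSC peak there, and the D1 peak that did scored 69.1. In these 4 regions the iPSC score was at most 70.7, and at least 99.8% of the iPSC-covered bases lay under OSNK peaks.

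The widest OSNK-only region also belonged to that group. On chromosome 19 it ran from 16533422 to 16539527, 6106 bp, with 3, 2 and 4 OSNK peaks at D1, D3 and D5 and highest scores of 203.97, 787.6 and 900.9. The iPSC list had 2 peaks in it, with a highest score of 71.7. The D1 peak of 203.97 overlapped neither of them, and the D1 peak that overlapped an iPSC peak scored 59.75. The nearest OySyNyK peak, at D3, had a score of 100.8 and lay 10111 bp away, and the nearest MEF peak lay 25543 bp away. The next widest, on chromosome 11 from 116202790 to 116207605, was instead strong in iPSC with 221.6. It scored 77.1 at D3 and 95.1 at D5, against medians of 92 and 81.9 over all regions of those lists. The D5 peak did not overlap the iPSC peak of 221.6, and 13.5% of the iPSC-covered bases lay under OSNK peaks. The region on chromosome 5 from 97442963 to 97446954 scored 202.7, 393.0 and 76.1 on the OSNK days and 63.3 in iPSC, with an OySyNyK D3 peak of score 50.6 at 132 bp. Its D1 peak of 202.7 did not overlap the iPSC peak, and the D1 peak that did scored 74.2.

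A few regions were high in both. Among those first called at D1, chromosome 1 from 192187120 to 192188716 scored 253.9 at D1, 115.5 at D3 and 175.0 in iPSC, was not called at D5, and had no OySyNyK peak within 107901 bp. Chromosome 7 from 138143354 to 138144939 scored 167.8, 216.4 and 130.3 on the OSNK days and 164.1 in iPSC, with its nearest OySyNyK peak, of score 188.6, at 7797 bp. The D1 peak of that region did not overlap its iPSC peak. Chromosome 2 from 131868493 to 131871273 scored 196.1, 386.6 and 145.1 and 149.3 in iPSC. There the whole iPSC peak lay under the OSNK D3 peak, while the D1 and D5 peaks did not overlap it.

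Of the regions first called at D3, chromosome 5 from 131913756 to 131916869 scored 142.7 at D3, 116.6 at D5 and 262.6 in iPSC. The OSNK D5 peak there did not overlap the iPSC peak. OySyNyK peaks of scores 65.1 at D3 and 54.5 at D5 stood 1077 and 2813 bp away. Chromosome 8 from 121491847 to 121492694 scored 171.1, 60.8 and 108.2, and chromosome 19 from 40631568 to 40633220 scored 120.5 at D3 alone and 177.4 in iPSC, with 15.4% of its iPSC peak under the OSNK peak. Of those first called at D5, chromosome 2 from 166721162 to 166722530 scored 112.9 at D5 and 147.0 in iPSC, with an OySyNyK D5 peak of score 165.7 at 326 bp. Chromosome 11 from 101882903 to 101884003 scored 116.1 and 142.65, with its iPSC peak wholly under the OSNK peak and the nearest OySyNyK peak at 2375 bp.

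**Figure D4:**
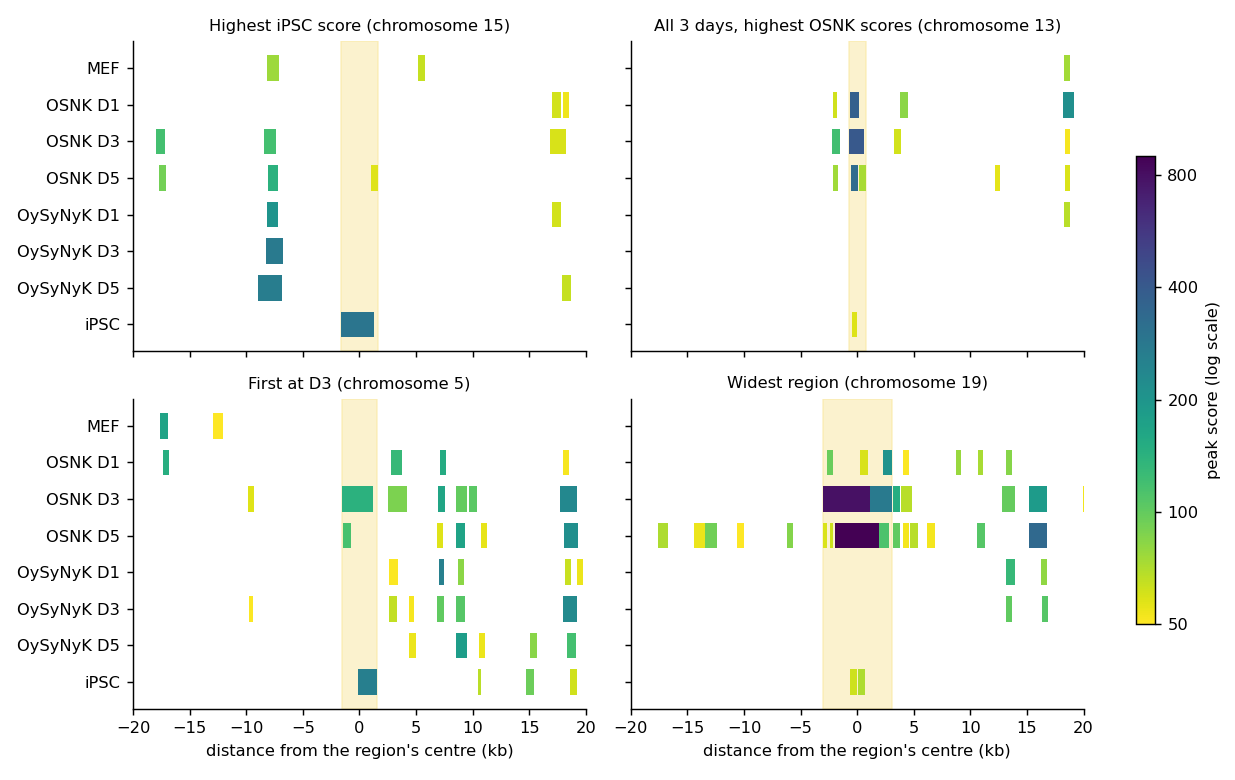
Peaks of the 8 lists within 20 kb of the centre of 4 OSNK-only regions (shaded), as bars coloured by peak score on a log scale, with distance from the region's centre in kb. The chromosome 15 region joins an iPSC peak of 292.4 to the edge of an OSNK D5 peak of 57.3. Those on chromosomes 13 and 19 hold strong OSNK peaks on every day and small iPSC peaks. On chromosome 5 an OSNK D3 peak overlaps an iPSC peak of 262.6 and an OSNK D5 peak lies beside it, with OySyNyK peaks a few kb away.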

How the data were processed

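The deposited files were 8 peak lists, 1 per library, called per sample. Per the submitters' processing notes, Bowtie and MACS were used; the sources used here state no version, setting or control for them. The score of each peak is as deposited and was not scaled between samples; a score of 50 corresponds in MACS to a p-value of 1e-05. Those notes give hg18 and NCBI36 as builds, both human. The lists hold mouse chromosomes, and peaks extend beyond the last gene of GRCm38 on 10 of 20 chromosomes; from general knowledge they match mm9.

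Peaks were merged and compared with numpy 2.4.6 and pandas 2.3.3 under Python 3.11.15, with intervals from scipy 1.17.1, checked on simulated lists and against bedtools 2.31.1, which gave the same 222732 and 1908 regions. A region's score in a list is that of its highest peak there, which need not overlap the region's iPSC peak. Figures used matplotlib 3.10.9.

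Regions named are the 5 with the highest iPSC score, the 5 on all 3 days with the highest lowest OSNK score, 3 per first day with the lowest sum of ranks by iPSC score and first-day score, the 3 widest, and the 3 fullest windows of 1 Mb; 2 regions came up under 2 of these. The rule and the regions' definition were chosen with earlier results of these data known. The planned gene annotation was left out, since no annotation of the lists' assembly was used here.

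Alternatives were iPSC peaks taken singly, a cover of at least 50% of the iPSC peak, only peaks scoring 100 or more, the best 54938 peaks of each list (equal numbers), peaks of 500 bp, merging within 1 kb, no MEF or other-method peak within 1 kb, leaving out chromosomes 12, 13, 16, 18 and X, leaving out each intermediate list, and, chosen after seeing the data, equal numbers of 500-bp peaks.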

Additional observations from a re-analysis of the deposited data

How the results depend on the processing

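No paired analysis was possible because each group had 1 library. Of 118 values over 9 settings, 63 stayed within their interval (or within 1.5 times, for the number of regions and its ratio) and 55 moved; none changed which set was larger in number, iPSC share or iPSC score. Values below are for OSNK-only regions, with OySyNyK-only ones second where named. A score of at least 100 left 308 regions, of which 49 of the 1908 were part, with 33.8% and 34.7% first at D3 and D5, iPSC shares of specific regions of 1.21% and 11.6%, median iPSC scores of 127.45 and 144.8 and widths of 1268.5 and 1301.5 bp. Equal numbers of peaks kept 800 of the 1908, with first calls of 19.3% at D1 and 39.5% at D3, 8.74% on 3 days, shares of 6.12% and 25.1%, an OySyNyK-only score of 82.1 and widths of 971 and 944 bp. Equal numbers of 500-bp peaks kept 700, with 17.5%, 37.0% and 45.4% first at D1, D3 and D5, 66.8% on 1 day, 7.46% on 3, shares of 5.48% and 23.3%, an OySyNyK-only score of 81.8 and widths of 635.5 and 602 bp. Peaks of 500 bp gave 27.3% and 42.7% first at D1 and D5, 65.99% on 1 day, 10.1% on 3, shares of 3.74% and 17.8% and widths of 627 and 603 bp. iPSC peaks taken singly gave 26.8%, 38.7% and 34.5% first at D1, D3 and D5 and 9.63% on 3 days, and a cover of 50% gave 21.6%, 43.1% and 35.3%, 65.6% on 1 day and 7.88% on 3. In both of these D3 and not D5 was the commonest first day. Merging within 1 kb gave 39.4%, 28.4% and 32.2%, 14.2% on 3 days, shares of 6.03% and 22.9% and widths of 1328 and 1105 bp, with D1 the commonest. With no other peak within 1 kb the shares were 3.71% and 19.4%, and without the 5 chromosomes the OySyNyK share was 19.8%. iPSC peaks taken singly give no share of method-specific regions and no region width.

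Leaving out each intermediate list in turn gave 1155 to 2902 OSNK-only regions, 0.140 to 0.870 per OySyNyK-only region, shares of specific regions in iPSC of 3.12% to 5.53% and 13.8% to 22.3%, median iPSC scores of 64.9 to 69.1 and 76.6 to 80.6 and widths of 756 to 954 and 870 to 877 bp. Leaving out an OySyNyK list gave 26.4% to 36.7%, 28.6% to 32.9% and 34.7% to 42.2% first at D1, D3 and D5, and 58.1% to 62.5%, 26.0% to 27.1% and 11.5% to 14.8% on 1, 2 and 3 days; without OySyNyK D1, D1 was the commonest first day. Depth is unknown, and its part in calls near a score of 50 was not tested.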
